A study of Mus musculus with 14 samples.

Results

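A list of 10 genes of the smooth muscle myosin motor and of the switch that turns it on and off was followed through bulk and single-nucleus libraries of mouse gut muscle. They are Myh11, Myh10, Mylk, Myl9, Myl6, Ppp1r12a, Ppp1r12b, Ppp1r14a, Ppp1cb and Telo2. They were taken from a list of names, and no rule on measured values picked them. Earlier results of these data were known when the list was chosen. All 10 were found, among 40481 genes of the bulk table and 32285 gene features of the matrices of nuclei.

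Smooth muscle contracts when its myosin is phosphorylated. The motor is a pair of heavy chains, each carrying an essential and a regulatory light chain. Calcium bound to calmodulin activates myosin light chain kinase, which phosphorylates the regulatory light chain, and myosin phosphatase, a complex of a catalytic subunit and a targeting subunit, removes the phosphate. Inhibitors of the phosphatase raise the force at a given calcium level, and in the gut wall the balance of kinase and phosphatase sets the tone of the muscle coat. Of the 10 genes, 9 encode parts of this machine. Telo2 encodes a partner of the chaperones that stabilise large kinases of the phosphatidylinositol 3-kinase-related family. Its known role lies outside the switch, and it is not telokin, the kinase-related protein made from an internal start of Mylk.

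RNA was measured in the muscularis, the muscle coat with its nerves and interstitial cells, of C57BL/6 mice. The genotype labels were Carmn iKO, called labelled KO here, and WT mTmG, called WT; Carmn makes a long non-coding RNA known from smooth muscle, and mTmG is the name of a membrane fluorescent reporter allele. There were 3 bulk libraries for each of KO colon (tags m1, t4 and t6), WT colon (t1, t6 and t7), KO jejunum (m1, t1 and t4) and WT jejunum (t1, t6 and t7), and 1 library of colon nuclei for each genotype. The sources used here do not give whether the mice labelled KO also carry the reporter, how and in which cells Carmn was deleted, or the age and treatment of the mice. The labels do not say that the 3 libraries of a group came from separate animals, so p-values measure the spread between these libraries only.

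Bulk libraries held about 24254900 to 44315100 counts. Carmn itself went against the label. It stood at 304 to 718 CPM (counts scaled to a common library size) in colon libraries labelled KO against 171 to 351 in WT colon, and at 817 to 996 against 206 to 326 in jejunum. The sources used here do not give which part of the gene was removed. On the first principal component KO colon t4 stood away from the rest (-114 against -62.9 to 83.6 for the others) and on the second KO jejunum m1 did (-110 against -40.4 to 65.5). KO colon t4 had the highest summed level of 6 fibroblast markers, 12754 CPM against 2563 to 7073 elsewhere, and KO jejunum m1 the highest sum of 9 smooth muscle markers, 76487 CPM against 24970 to 52088 elsewhere. No smooth muscle marker was at 0 in any library. Their summed level was 24970 to 34355 CPM in KO colon and 35988 to 52088 CPM in WT colon, and 27281 to 76487 CPM in KO jejunum and 26737 to 28390 CPM in WT jejunum. In such bulk tissue, fewer cells of a type and less RNA per cell cannot be told apart.

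In colon, 9 of the 10 genes were lower in libraries labelled KO than in WT, and Ppp1cb, the catalytic subunit of the phosphatase, was the 1 that passed the test. The test was edgeR quasi-likelihood with a Benjamini-Hochberg adjusted p under 0.05 over 20886 genes; 0.388% of all genes tested passed it, 0.273% as lower in KO. The median log2 fold change of the 10 was -0.89, beside 0.004 over all genes tested. All 9 smooth muscle markers were lower in KO colon too (median log2 fold change -0.42), with 0 called by edgeR. Their part in the values of the 10 was not tested. At an unadjusted p under 0.05 there were 6 of 10, beside 14.5% of all genes. In 7 of 10 the KO and WT colon values did not overlap, all lower in KO, as in 10.4% of all genes tested (8.79% were higher without overlap). DESeq2 called 5 of 10 (Mylk, Myl9, Myl6, Ppp1r12a and Ppp1cb), beside 4.60% of all genes, and limma voom called Ppp1cb alone, beside 0.455% of all genes.

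In jejunum none of the 10 passed the edgeR test (0.215% of all genes did, 0.0910% as lower in KO). There 4 had an unadjusted p under 0.05 (13.2% of all genes), and DESeq2 called 3 (Myh10, Mylk and Ppp1cb) beside 3.85% of all genes. Limma voom called 0 of 10, beside 0.364% of all genes. The median log2 fold change was -0.50, beside 0.02 over all genes. Of the 9 smooth muscle markers 6 were higher and 3 lower in KO jejunum (median log2 fold change 0.50), with 0 called by edgeR. Myh10 was the 1 gene with higher, non-overlapping values in KO jejunum (11.0% of all genes had such values), and Mylk, Ppp1r12a and Ppp1cb were the 3 with lower ones (11.2%); 22.2% of all genes did not overlap in either direction. The test of the difference between the tissues called none of the 10 and none of all genes by edgeR (0%). By edgeR it had 0 of 10 at an unadjusted p under 0.05 (4.16% of all genes). DESeq2 called 0 of 10, beside 0.177% of all genes, and limma voom 0 of 10, beside 0% of all genes. None of the 10 is shown to respond differently in the 2 tissues.

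**Figure D1:**
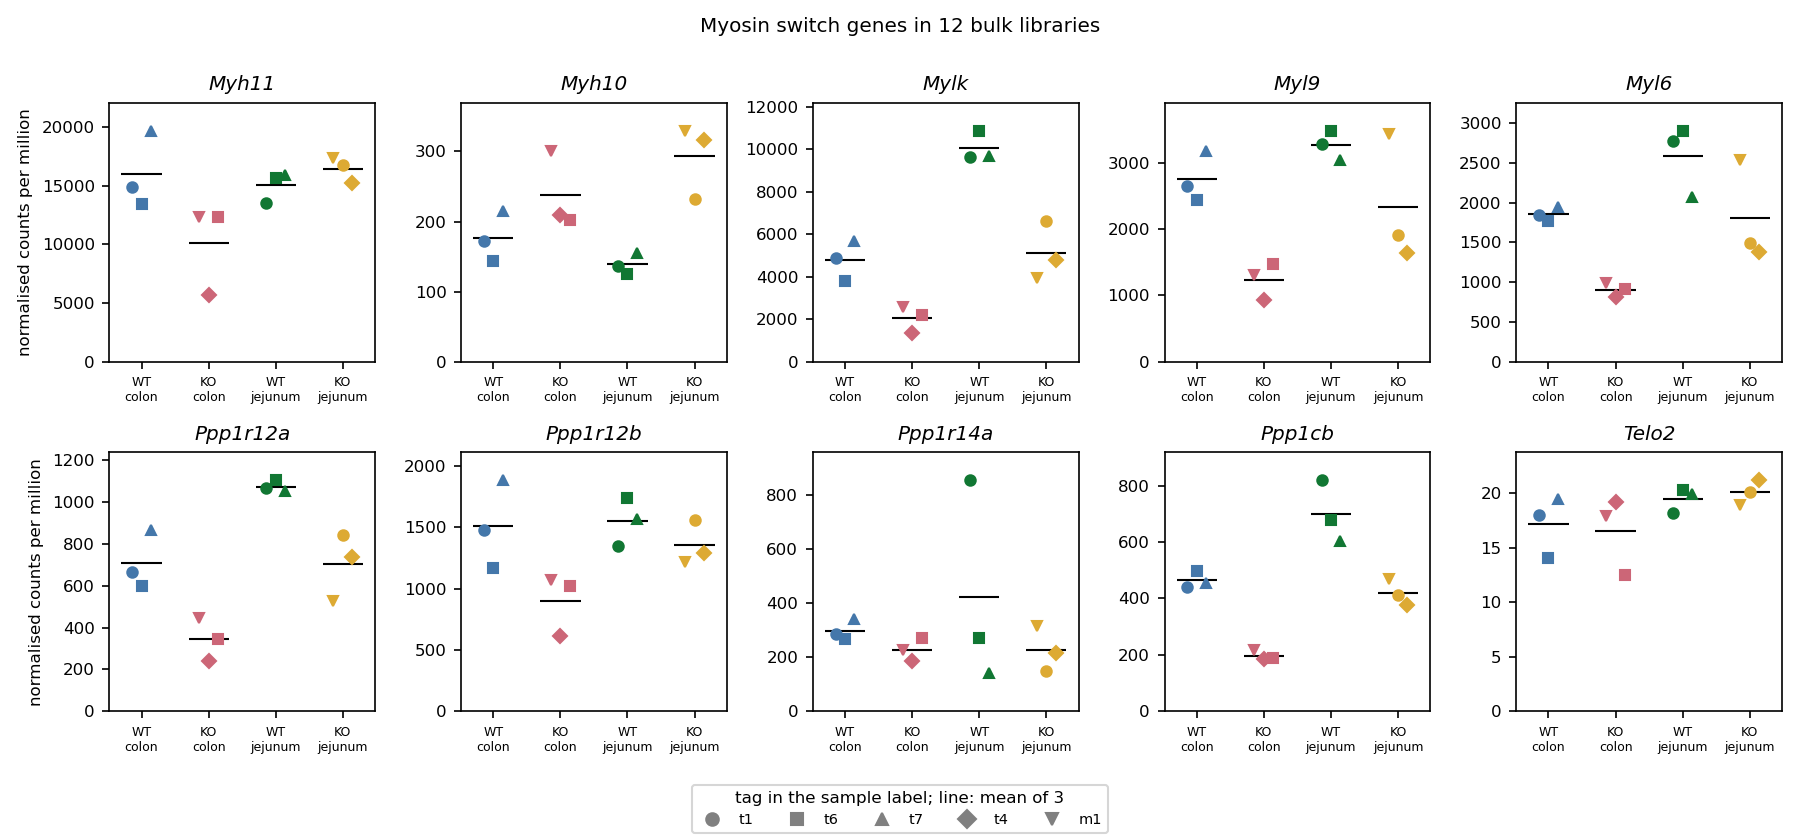
Normalised CPM of the 10 genes (vertical axes, each from 0) in the 12 bulk libraries by group (horizontal axis), with a symbol for the tag in the sample label and a line at the mean of 3. The 3 Ppp1cb values of KO colon, 185 to 217 CPM, lie below all other groups, and Telo2 lies between 12.5 and 21.2 CPM everywhere.

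Myh11, the smooth muscle myosin heavy chain (ENSMUSG00000018830, chromosome 16, 14194535 to 14291372, GRCm38), was among the most abundant transcripts of every group, ranked 19 to 24 by CPM per kilobase of exon among 20879 genes. In colon it stood at 12303, 5711 and 12294 CPM in KO m1, t4 and t6 and at 14849, 13412 and 19702 CPM in WT t1, t6 and t7. The KO values lay below all 3 WT values, by a narrow gap for m1 and t6 and a wide one for t4, and the difference did not pass the test (log2 fold change -0.66, SE 0.31, edgeR adjusted p = 0.362). Without KO colon t4 and KO jejunum m1, a setting added after the data were seen, it was -0.36 (edgeR adjusted p = 0.406), so that the value moved by over 1.5 times. In jejunum the KO libraries had 17354, 16777 and 15188 CPM and the WT libraries 13528, 15651 and 15948 CPM; the ranges overlapped (0.13, SE 0.31, edgeR adjusted p = 0.899).

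Myh10, the nonmuscle myosin IIB heavy chain (ENSMUSG00000020900, chromosome 11, 68691559 to 68816632), was the 1 member with a positive log2 fold change in colon. It had 330, 233 and 316 CPM in KO jejunum m1, t1 and t4 and 136, 125 and 156 CPM in WT jejunum t1, t6 and t7. All KO values lay above all WT values, yet the difference missed the threshold in edgeR (log2 fold change 1.08, SE 0.22, adjusted p = 0.0830) and passed it in DESeq2 (1.08, adjusted p = 0.000907). In colon the KO libraries had 300, 210 and 203 CPM and the WT libraries 173, 144 and 215 CPM, which overlapped (0.42, SE 0.22, edgeR adjusted p = 0.411). Per kilobase, Myh10 amounted to 1.20% to 2.67% of Myh11 in KO colon and 0.779% to 0.844% in WT colon, and to 1.01% to 1.51% in KO jejunum and 0.579% to 0.731% in WT jejunum. The KO and WT ranges of this ratio did not overlap in either tissue; with 3 libraries against 3 an exact permutation test cannot give a p below 0.1.

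Myl9, the regulatory light chain that the kinase phosphorylates (ENSMUSG00000067818, chromosome 2, 156775420 to 156781658), and Myl6, the essential light chain shared by smooth muscle and nonmuscle myosin (ENSMUSG00000090841, chromosome 10, 128490860 to 128494145), had the most similar profiles of any 2 of the 10 genes. The measure was the mean absolute difference between the centred log2 CPM over the 12 libraries. It was 0.1396 for this pair and nearly the same, 0.1405, for Myh11 and Ppp1r12b. Myl9 had 1312, 924 and 1467 CPM in KO colon m1, t4 and t6 against 2659, 2437 and 3174 CPM in WT t1, t6 and t7 (log2 fold change -1.16, SE 0.30, edgeR adjusted p = 0.124, DESeq2 adjusted p = 0.00654). Myl6 had 985, 818 and 910 CPM in KO colon and 1842, 1768 and 1944 CPM in WT colon (-1.03, SE 0.26, edgeR adjusted p = 0.123, DESeq2 adjusted p = 0.00432). In both genes every KO colon library lay well below every WT colon library. Without KO colon t4 and KO jejunum m1 both passed the edgeR test, Myl9 at -0.97 (adjusted p = 0.0389) and Myl6 at -0.95 (adjusted p = 0.0414). That setting was added after the data were seen and has fewer KO libraries and another estimate of the spread. The share of all genes it called is not given here, so these calls are not a result about Myl9 and Myl6. Both changes were smaller in that setting than with all libraries.

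In jejunum 1 library set the picture. Myl9 had 3440 CPM in KO jejunum m1 but 1909 and 1643 CPM in t1 and t4, against 3279, 3490 and 3039 CPM in WT t1, t6 and t7. Myl6 likewise had 2540 CPM in m1 but 1487 and 1380 CPM in t1 and t4, against 2773, 2906 and 2071 CPM in WT. KO jejunum m1, the library with the highest smooth muscle marker sum, lay within the WT range for both genes, and the other 2 lay below it. The log2 fold changes were -0.49 for Myl9 (edgeR adjusted p = 0.507) and -0.52 for Myl6 (adjusted p = 0.414) with all libraries. They were -0.91 (adjusted p = 0.0662) and -0.87 (adjusted p = 0.0713) without KO colon t4 and KO jejunum m1. The part of the smooth muscle marker level in these values was not tested.

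Both genes have a CArG box, the element bound by serum response factor, in a RefSeq promoter window (300 bases, from 250 before to 50 after a start, GRCm38.p6), and they are shown for this reason. Windows were found for 9 of the 10 genes (12 windows). There was none for Myh11, so its promoter was not searched. The windows were searched on both strands with overlaps between motifs allowed. A CArG box was found in 1.63% of 32851 windows of the same length, and in 2 of these 12, that of Myl9 (chr2:156775214-156775513, plus strand) and that of the inner of 2 Myl6 starts (chr10:128492960-128493259, minus strand). Capitals mark the CArG box and GGGCGG, a GC box that 35.7% of all windows hold, on either strand. The box is a match of letters, not a measured site.
Myl9: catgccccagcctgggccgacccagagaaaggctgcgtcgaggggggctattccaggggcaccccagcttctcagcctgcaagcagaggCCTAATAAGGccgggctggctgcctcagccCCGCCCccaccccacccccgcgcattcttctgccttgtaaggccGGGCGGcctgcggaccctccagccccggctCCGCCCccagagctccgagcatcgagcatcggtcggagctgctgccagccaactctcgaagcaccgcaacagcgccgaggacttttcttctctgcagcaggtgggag
Myl6: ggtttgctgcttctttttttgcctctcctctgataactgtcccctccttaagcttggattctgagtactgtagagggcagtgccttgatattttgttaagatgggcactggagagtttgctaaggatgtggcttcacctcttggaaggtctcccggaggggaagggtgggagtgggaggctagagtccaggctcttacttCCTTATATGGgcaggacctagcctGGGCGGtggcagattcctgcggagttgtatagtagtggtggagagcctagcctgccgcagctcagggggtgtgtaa

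Mylk (ENSMUSG00000022836, chromosome 16, 34745210 to 35002420) encodes the long and short forms of myosin light chain kinase and telokin, which counts per gene cannot separate; antisense transcripts overlap 4.87% and 1.99% of its exon length, and the sources used here do not give whether counting used strand, so its counts are uncertain to that extent. In colon it had 2593, 1357 and 2177 CPM in KO m1, t4 and t6 and 4860, 3812 and 5691 CPM in WT t1, t6 and t7. The jejunum libraries had 3957, 6643 and 4768 CPM in KO m1, t1 and t4 and 9660, 10884 and 9692 CPM in WT t1, t6 and t7. The KO libraries lay below the WT libraries in both tissues without overlap. The log2 fold changes were -1.23 in colon (SE 0.30, edgeR adjusted p = 0.115) and -0.98 in jejunum (SE 0.30, adjusted p = 0.198), neither past the edgeR threshold and both past that of DESeq2 (adjusted p = 0.00147 and 0.0228).

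Mylk also lay lower in every WT colon library than in every WT jejunum library, where Myh11 overlapped. WT colon had 47.5% of the WT jejunum level (log2 fold change -1.07, SE 0.30, edgeR adjusted p = 0.118, DESeq2 adjusted p = 0.00483). Without KO colon t4 and KO jejunum m1, the setting added after the data were seen, the edgeR adjusted p was 0.0131. Those libraries are not in this comparison but share its estimate of the spread, and the share of all genes called without them is not given here. Set against the heavy chain per kilobase, Mylk amounted to 45.4% ± 3.83 of Myh11 in WT jejunum and 20.2% ± 1.60 in WT colon (SD, n = 3). It amounted to 21.1% ± 5.67 in KO jejunum and 14.1% ± 2.04 in KO colon. The KO jejunum values, 15.4%, 26.7% and 21.2% in m1, t1 and t4, all lay below the lowest WT jejunum value of 41.0% and on both sides of the WT colon values of 19.2% to 22.1%. In the plot of the Mylk share of Myh11, the WT jejunum libraries stand alone.

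**Figure D2:**
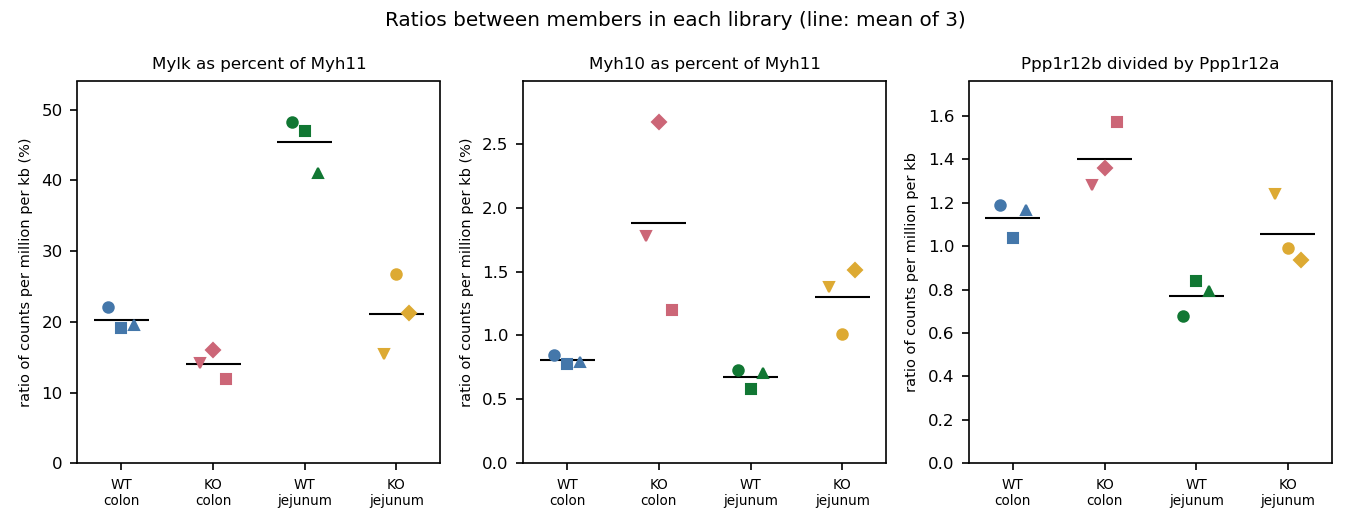
Ratios of CPM per kilobase (vertical axes, each from 0) between Mylk and Myh11, Myh10 and Myh11, and Ppp1r12b and Ppp1r12a in each bulk library (points, by tag) with the mean of 3 (line), by group. The Mylk share of Myh11 is 41.0% to 48.2% in WT jejunum and at most 26.7% in every other library.

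Ppp1cb, the beta isoform of the protein phosphatase 1 catalytic subunit (ENSMUSG00000014956, chromosome 5, 32458843 to 32517433), had the smallest p of the 10 genes in colon. It had 217, 185 and 188 CPM in KO colon m1, t4 and t6 and 441, 496 and 456 CPM in WT colon t1, t6 and t7. KO colon thus stood at 197 ± 17.8 CPM and WT colon at 464 ± 28.5 CPM (SD, n = 3). The fitted level was 42.4% of WT (log2 fold change -1.24, SE 0.18, edgeR adjusted p = 0.0239, lower in 3 of 3 libraries). It was 18th of the 20886 genes by p. The call did not hold in every setting. The adjusted p was 0.0586 without KO colon t4, 0.115 without KO colon t6, 0.0889 without WT colon t1, 0.0767 without WT colon t6, and 0.123 when only the 6 colon libraries were fitted. The log2 fold change lay between -1.32 and -1.17 in all settings run. Gm43312, a transcript annotated on the same strand, covers 17.5% of its exon length.

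In jejunum Ppp1cb had 470, 413 and 376 CPM in KO m1, t1 and t4 and 821, 680 and 604 CPM in WT t1, t6 and t7. These did not overlap either, and the difference (log2 fold change -0.74, SE 0.18) had an edgeR adjusted p of 0.116 and a DESeq2 adjusted p of 0.00152. Ppp1ca and Ppp1cc, the other catalytic isoforms, named after their values were seen, had log2 fold changes of 0.30 (SE 0.21, edgeR adjusted p = 0.558) and 0.29 (SE 0.15, adjusted p = 0.407) in colon. In jejunum these were 0.39 (adjusted p = 0.449) and -0.16 (adjusted p = 0.683).

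The targeting subunits bring the catalytic subunit to myosin. Ppp1r12a, or MYPT1 (ENSMUSG00000019907, chromosome 10, 108162193 to 108284475), had 447, 240 and 347 CPM in KO colon and 664, 600 and 865 CPM in WT colon, without overlap (log2 fold change -1.04, SE 0.26, edgeR adjusted p = 0.123, DESeq2 adjusted p = 0.00575). Jejunum libraries had 526, 841 and 738 CPM in KO and 1066, 1106 and 1051 CPM in WT (-0.61, SE 0.26, edgeR adjusted p = 0.344). Its paralogue Ppp1r12b, or MYPT2 (ENSMUSG00000073557, chromosome 1, 134754658 to 134955942, with an antisense transcript over 4.74% of its exon length), had 1069, 609 and 1019 CPM in KO colon and 1474, 1163 and 1885 CPM in WT colon (-0.75, SE 0.26, edgeR adjusted p = 0.233). It had overlapping ranges of 1218 to 1560 CPM and 1347 to 1737 CPM in KO and WT jejunum.

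Per kilobase, the level of Ppp1r12b relative to Ppp1r12a lay higher in every library labelled KO than in every WT library of the same tissue. It was 1.403 ± 0.15 in KO colon and 1.13 ± 0.08 in WT colon, and 1.06 ± 0.16 in KO jejunum and 0.77 ± 0.09 in WT jejunum (SD, n = 3). There was no overlap between KO and WT in either tissue (lowest KO 1.28 and highest WT 1.19 in colon, 0.94 and 0.84 in jejunum). The limit of 3 libraries against 3 holds here too, and the share of all gene pairs without overlap is not given. The ratio of Mylk to Ppp1r12a also did not overlap in either tissue. That of Mylk to Ppp1cb (7.09 to 11.6 in KO colon and 7.44 to 12.1 in WT colon) overlapped in both tissues. So did those of Ppp1cb to Ppp1r12a, Myl6 to Myl9 and Myl9 to Myh11. The profile of Ppp1r12b was close to that of Myh11 (mean absolute difference 0.14 on the centred log2 CPM scale) and that of Ppp1r12a was closer to Mylk (0.22) than to Ppp1r12b (0.29).

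Ppp1r14a encodes CPI-17, an inhibitor that blocks the phosphatase when phosphorylated by protein kinase C (ENSMUSG00000037166, chromosome 7, 29289308 to 29293801). It had 226, 187 and 270 CPM in KO colon and 284, 269 and 340 CPM in WT colon (log2 fold change -0.39, SE 0.52, edgeR adjusted p = 0.798). In WT jejunum it had 856 CPM in t1 but 269 and 142 CPM in t6 and t7, and in KO jejunum 316, 148 and 216 CPM in m1, t1 and t4. The log2 fold change in jejunum was -0.90 (SE 0.53, edgeR adjusted p = 0.494) with WT jejunum t1 and 0.12 without it, so that its direction rests on that library.

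Telo2 (ENSMUSG00000024170, chromosome 17, 25099570 to 25115967) had the lowest level per kilobase of the 10 genes in every group. It had 17.9, 19.2 and 12.5 CPM in KO colon and 18.01, 14.04 and 19.5 CPM in WT colon, and 18.9, 20.1 and 21.2 CPM in KO jejunum and 18.2, 20.3 and 19.9 CPM in WT jejunum. The ranges overlapped in both tissues, with log2 fold changes of -0.06 in colon (SE 0.19, edgeR adjusted p = 0.935) and 0.05 in jejunum (SE 0.19, adjusted p = 0.947).

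**Figure D3:**
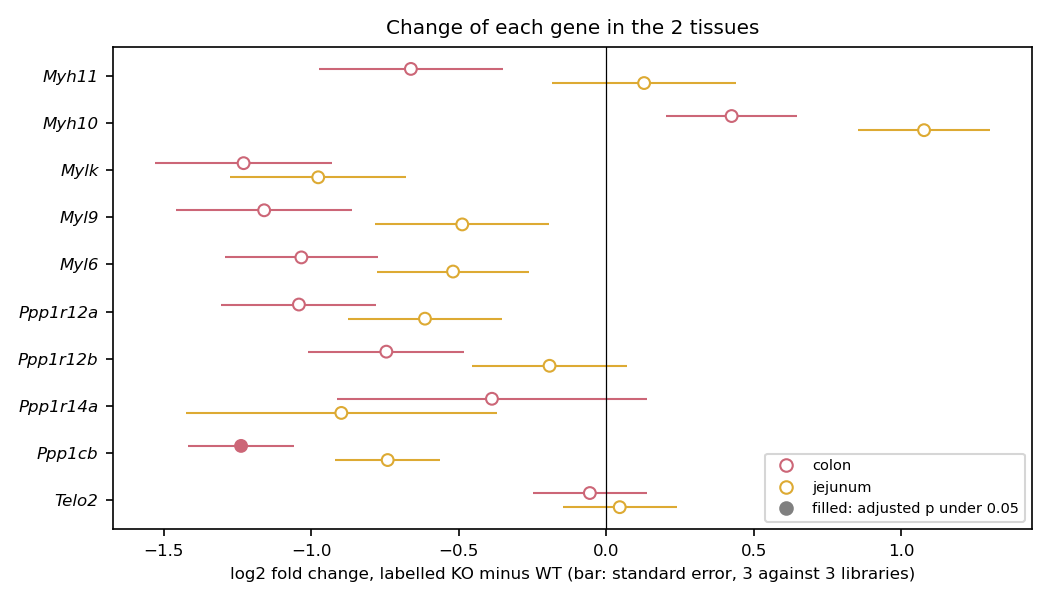
Log2 fold change of libraries labelled KO minus WT (horizontal axis; bar, standard error) for the 10 genes in colon and jejunum, 3 against 3 libraries; a filled point has an edgeR adjusted p under 0.05. Ppp1cb in colon (-1.24) is the 1 filled point, and Myh10 is the 1 gene above 0.2 in both tissues.

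By level per kilobase, Myh11 and Myl9 held the first places and Telo2 the last in all 4 groups. In WT colon Myl9 had 2372 ± 325 CPM per kilobase and Myh11 2104 ± 434, which do not differ beyond their spread. In KO colon Myh11 came first with 1329 ± 500 and Myl9 second with 1062 ± 241 (SD, n = 3). Myl6 with 581 ± 27.7 and Mylk with 425 ± 83.6 CPM per kilobase followed in WT colon. Then came Ppp1r14a with 218 ± 27.5, above all values of Ppp1r12b, with 101 ± 24.2, and Ppp1r12a, with 88.5 ± 17.3, which overlapped each other. Ppp1cb with 42.6 ± 2.62, Myh10 with 16.9 ± 3.41 and Telo2 with 2.15 ± 0.35 CPM per kilobase came last. In KO colon Myh10, with 22.7 ± 5.22, stood above Ppp1cb, with 18.04 ± 1.64, and the 2 overlapped.

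Between the tissues, none of the 10 genes passed the edgeR test in WT (1.56% of all genes did, and 3 of 10 at an unadjusted p under 0.05 beside 13.1%; 4 of 10 lower without overlap beside 11.7%, with 22.9% in either direction). DESeq2 called Mylk and Ppp1cb (5.55% of all genes), and limma voom 0 of 10 (1.68% of all genes). Among libraries labelled KO, 9 of 10 were lower in colon than in jejunum, Ppp1r14a being at 0.01. Ppp1cb passed the test (log2 fold change -1.09, SE 0.18, edgeR adjusted p = 0.0214; 1.29% of all genes passed, 0.833% as lower and 0.460% as higher). In 7 of 10 the KO colon values lay below all KO jejunum values (9.64% of all genes; 9.93% lay above and 19.6% either way). DESeq2 called 5 there (6.83% of all genes) and limma voom 2, Mylk and Ppp1cb (1.41% of all genes). Ppp1cb missed the threshold without KO colon t6 (edgeR adjusted p = 0.0775), without KO jejunum t1 (0.0510) and when only the 6 libraries labelled KO were fitted (0.142). In the setting added after the data were seen, without KO colon t4 and KO jejunum m1, the edgeR test called Mylk and Ppp1r12a beside Ppp1cb. The values there were -1.27 (adjusted p = 0.0275), -1.01 (adjusted p = 0.0353) and -0.98 (adjusted p = 0.0218). The share of all genes called in that setting is not given here, so the added calls are not a result about the members. These comparisons share libraries with those of genotype and are not independent of them.

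Related genes came from 4 lists. In KO against WT none of 8 tested nonmuscle and other myosin chains and kinases, none of 6 other phosphatase subunits and inhibitors, none of 17 calmodulin genes and upstream regulators and none of 6 partners of Telo2 passed the edgeR test in either tissue. At an unadjusted p under 0.05 they were 2, 1, 5 and 0 in colon and 2, 2, 4 and 0 in jejunum, beside 14.5% and 13.2% of all genes. Myl12a, a nonmuscle regulatory light chain named after its values were seen, had 514, 204 and 300 CPM in KO jejunum m1, t1 and t4 and 116, 99.9 and 99.1 CPM in WT jejunum t1, t6 and t7, without overlap (log2 fold change 1.69, SE 0.33, edgeR adjusted p = 0.0736). Myl12b shares 13.8% of its exon length. Mylk3, a myosin light chain kinase known from heart muscle, was the 1 gene of these lists called anywhere. It was lower in WT colon (0.680 to 1.35 CPM) than in WT jejunum (4.86 to 9.27 CPM; -2.53, SE 0.51, edgeR adjusted p = 0.0345).

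Among the upstream regulators, Arhgef1, an exchange factor for RhoA, had 142 to 174 CPM in KO colon and 84.7 to 115 CPM in WT colon (log2 fold change 0.69, SE 0.17, edgeR adjusted p = 0.113). Ilk, integrin-linked kinase, had 5.88 to 9.59 CPM in KO jejunum and 2.39 to 3.32 CPM in WT jejunum (1.52, SE 0.40, edgeR adjusted p = 0.146). Taf10 on the other strand covers 76.8% of its exon length, so its counts are uncertain. Of the phosphatase inhibitors, Ppp1r14c had 0.604 to 0.747 CPM in KO jejunum and 1.84 to 2.51 CPM in WT jejunum (-1.64, SE 0.38, edgeR adjusted p = 0.113), with a transcript on the other strand over 29.2% of its exon length. Ppp1r14b had 27.2 to 64.3 CPM and 17.8 to 31.8 CPM, which overlapped. Of the partners of Telo2, Tti1 (-0.36, SE 0.18, edgeR adjusted p = 0.398) and Rpap3 (0.33, SE 0.19, adjusted p = 0.447) had the smallest p between genotypes, both in colon. The calmodulin gene Calm2, named after its values were seen, had 218 to 263 CPM in KO colon and 501 to 550 CPM in WT colon (-1.11, SE 0.30, edgeR adjusted p = 0.144).

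Over the 12 bulk libraries, the genes with the profile nearest to each member were found among 14753 genes by the mean absolute difference of centred log2 CPM. Nearest to Myh11 were Esr1 (0.10), Rbm38 (0.13) and Pgm5 (0.15), where the median over all candidates was 0.42. Nearest to Mylk were Ldhb (0.20), Gucy1b1 (0.24) and Cap2 (0.24), and nearest to Myl9 were Zfp811 (0.14), Gm10080 (0.15) and Gm1976 (0.15). Nearest to Telo2 were BC024978 (0.08), Ap1m1 (0.09) and Ruvbl1 (0.10), beside a median of 0.35 for a gene that itself varies little.

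In colon nuclei there was 1 library per genotype, so differences between genotypes have no replicate check and intervals cover counting error only. After filters, 2583 WT and 1574 KO nuclei remained, with median depths of 1675 and 1959 unique molecular identifiers (UMIs); 4 barcodes occurred in both libraries. Nuclei were clustered with the 10 genes left out, and a cluster was named from 9 smooth muscle markers, none of them among the 10. The smooth muscle-like class held 673 WT and 303 KO nuclei, or 26.1% and 19.3%. It was made of cluster 0 (495 WT and 101 KO), cluster 3 (176 and 141) and cluster 19 (2 and 61), so cluster 19, led by Ankrd1, Igfbp2 and Postn, came mostly from the library labelled KO. Cluster 7 (161 WT and 48 KO, 6.23% and 3.05%) scored highest for smooth muscle and cluster 12 (44 and 75, 1.70% and 4.76%) for vascular mural cells with smooth muscle close behind. Both missed the naming rule, which was set after the clusters were seen. Cluster 18 (34 and 34), the deepest with a median of 13826.5 UMIs, stayed unnamed too.

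In WT, 8 of the 10 genes were highest in the smooth muscle-like class among 12 named classes. Myh11 had 119 UMIs per 10000 there (95% interval 117 to 120) and 5.89 over the other named classes together, 4.21 in enteric glia-like nuclei (median 1848.5 UMIs, against 1927 in the smooth muscle-like class), a type that should lack it. Mylk had 14.6 against 0.91, Ppp1r12a 47.5 against 5.62, Myl9 1.54 against 0.20 and Ppp1r12b 16.9 against 2.70. The ratio of the smooth muscle-like level to the others was 20.1 for Myh11, 16.0 for Mylk and 8.45 for Ppp1r12a, but 3.86 for Myl6, 3.25 for Ppp1cb and 3.11 for Myh10. Telo2 had 0.14 UMIs per 10000 in smooth muscle-like nuclei and 0.20 elsewhere.

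Ppp1r14a stood higher in the class like interstitial cells of Cajal, the pacemaker cells of the gut, than in smooth muscle-like nuclei in both libraries. It was at 0.71 (95% interval 0.31 to 1.39) against 0.50 (0.40 to 0.61) UMIs per 10000 in WT and 1.06 (0.51 to 1.94) against 0.45 (0.32 to 0.60) in KO, with intervals that overlap. Ppp1cb in KO likewise had 4.64 there and 4.39 in smooth muscle-like nuclei. Among the named classes Ppp1r12b had its next highest WT level in the same class, 8.49 UMIs per 10000 with Myh11 at 9.11 there. Smooth muscle-like nuclei had 16.9 and 119. Myl6 was next highest among the named classes in mesothelial-like nuclei, at 2.67 in WT and 2.54 in KO. Lymphatic endothelial-like nuclei held Myh11 at 34.9 and 48.2 UMIs per 10000 in WT and KO and Mylk at 4.40 and 6.71. These Myh11 levels came from 206 UMIs in 9 of 40 WT nuclei (22.5%) and 244 UMIs in 9 of 32 KO nuclei (28.1%). In enteric glia-like nuclei 22.3% of WT and 13.8% of KO nuclei had a Myh11 UMI, at median depths of 1848.5 and 2273 UMIs, against 1192.5 and 1050.5 in the lymphatic endothelial-like class.

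In smooth muscle-like nuclei 9 of the 10 genes had a lower level in the library labelled KO. The share of all genes that were lower in KO there is not given, so this count is not a result about the members. Cluster 0 made up 495 of the 673 WT nuclei of this class and 101 of the 303 KO ones. The pooled values below therefore do not separate the make-up of the class from the level in its clusters. The lowest ratios were those of Ppp1cb, 7.09 in WT and 4.39 UMIs per 10000 in KO (ratio 0.62, counting interval 0.55 to 0.69), and Mylk, 14.6 and 9.76 (0.67, 0.62 to 0.72). Myl9 had 1.54 and 1.05 (0.69, 0.54 to 0.86), Ppp1r12a 47.5 and 33.3 (0.70, 0.67 to 0.73), Myh11 119 and 89.2 (0.75, 0.73 to 0.77), Myl6 4.07 and 3.297 (0.81, 0.71 to 0.92) and Ppp1r12b 16.9 and 15.1 (0.89, 0.84 to 0.95). The counting intervals of Myh10 (0.88, 0.71 to 1.08), Ppp1r14a (0.90, 0.61 to 1.31) and Telo2 (1.46, 0.77 to 2.73) included 1. The summed level of the 9 smooth muscle markers in these nuclei was 176 UMIs per 10000 in WT and 179.5 in KO, and that of the 6 fibroblast markers 18.2 and 28.1; their part in these values was not tested.

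Clusters taken alone gave the same direction for the kinase and the catalytic subunit. In cluster 0, Mylk had 14.8 UMIs per 10000 in WT and 10.5 in KO, Ppp1cb 7.13 and 5.398, and Myh11 126 and 106. In cluster 3 the values were 13.8 and 10.0 for Mylk, 6.81 and 4.85 for Ppp1cb, and 86.3 and 78.4 for Myh11. Other members were not lower in KO in every cluster. In cluster 0, Myl6 had 3.96 in WT (counting interval 3.65 to 4.30) and 4.08 in KO (3.44 to 4.81), Myh10 1.49 and 1.599, and Ppp1r14a 0.44 and 0.46, so the lower Myl6 level of the pooled class was not seen there. Myh10 was lower in KO in cluster 3, at 2.23 (counting interval 1.74 to 2.81) in WT and 1.04 (0.69 to 1.51) in KO. It was higher in KO in cluster 7, at 1.79 (1.41 to 2.25) and 2.23 (1.48 to 3.23). In cluster 7 Mylk had 9.79 and 5.58, Ppp1cb 3.73 and 3.43 and Ppp1r12b 11.8 and 17.7, the last higher in KO. Cluster 19, of the library labelled KO, had 8.81 for Mylk, 3.10 for Ppp1cb and 80.8 for Myh11.

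**Figure D4:**
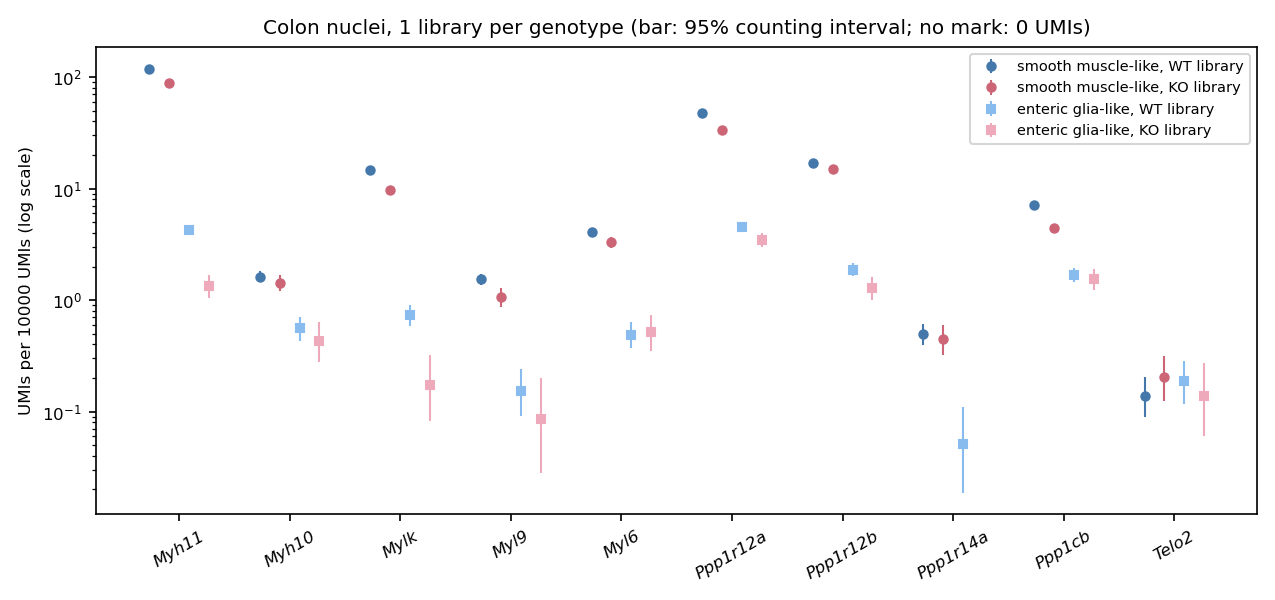
UMIs per 10000 (log axis) of the 10 genes (horizontal axis) in smooth muscle-like nuclei (circles) and in enteric glia-like nuclei (squares) of the WT and KO colon libraries, 1 library each, with 95% counting intervals. Myh11 is at 119 and 89.2 in smooth muscle-like nuclei and Telo2 lies at 0.14 to 0.20 in all 4 sets.

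The matrices of nuclei also hold counts over regions of accessible chromatin, called separately in each library: 35003 in WT and 26493 in KO. Of the 10 genes, 9 had a region within 1000 bases of an annotated start in WT (all but Ppp1r14a) and 9 in KO (all but Myl6). Over all genes, by the single position the feature table gives, 43.3% (WT) and 36.8% (KO) had one. Since the KO library had fewer nuclei and fewer regions, a region missing from 1 list does not show closed chromatin. The region at the Myh11 start (chromosome 16, 14290736 to 14291935 in WT) had counts in 8.17% of 673 WT smooth muscle-like nuclei and 9.24% of 303 KO ones, and in 1.81% and 2.12% of enteric glia-like nuclei. Per 10000 region counts of the class it had 2.07 in WT and 2.31 in KO smooth muscle-like nuclei. As each library has its own regions, these values are read within a library and do not compare the genotypes.

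The Myl9 start (chromosome 2, 156774730 to 156775781 in WT), which holds the Myl9 window printed above, had 1.23 counts per 10000 in smooth muscle-like nuclei, 0.86 in enteric glia-like and 0.18 in epithelial-like nuclei of WT. The region at the Ppp1cb start (chromosome 5, 32458485 to 32459525) had 1.09, 1.55 and 1.04, and that of Telo2 0.30, 0.79 and 0.45, so for neither gene did smooth muscle-like nuclei have the highest value. Mylk had a region at its outermost annotated start (34744897 to 34745769) but none within 1000 bases of 34784921 or 34994807, the starts of its protein-coding transcripts, in either library.

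Ppp1r12b had 2 start regions in WT. The outer one (chromosome 1, 134955489 to 134956390) had 0.88 counts per 10000 in WT smooth muscle-like, 0.29 in enteric glia-like and 0.48 in epithelial-like nuclei, and was listed in both libraries. The inner one (134803290 to 134804884), at a RefSeq start within the gene, had 0.63 (95% interval 0.44 to 0.87), 0.11 (0.02 to 0.32) and 0.06 (0.01 to 0.22) and was listed in WT alone. The window at this inner start is shown because its region was higher in smooth muscle-like nuclei than in the other classes given. That of Ppp1cb is shown because its region had the highest value in enteric glia-like nuclei among the classes given. The Ppp1cb values are given without counting intervals, so that order is of the values alone. Capitals mark CCAAT (in 37.4% of all windows), CATTCC (14.7%) and GGGCGG (35.7%) on either strand. The inner Ppp1r12b window (chr1:134803793-134804092, minus strand) has 3 CATTCC and 1 CCAAT and no GGGCGG, and the Ppp1cb window (chr5:32458720-32459019, plus strand) has 3 GGGCGG and 1 CATTCC.
Ppp1r12b inner: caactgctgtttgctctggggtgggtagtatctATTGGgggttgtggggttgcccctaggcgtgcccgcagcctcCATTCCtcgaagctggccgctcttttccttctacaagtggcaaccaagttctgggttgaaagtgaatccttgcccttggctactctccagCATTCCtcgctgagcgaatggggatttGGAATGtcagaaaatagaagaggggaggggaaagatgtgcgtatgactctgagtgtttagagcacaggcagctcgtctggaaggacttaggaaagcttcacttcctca
Ppp1cb: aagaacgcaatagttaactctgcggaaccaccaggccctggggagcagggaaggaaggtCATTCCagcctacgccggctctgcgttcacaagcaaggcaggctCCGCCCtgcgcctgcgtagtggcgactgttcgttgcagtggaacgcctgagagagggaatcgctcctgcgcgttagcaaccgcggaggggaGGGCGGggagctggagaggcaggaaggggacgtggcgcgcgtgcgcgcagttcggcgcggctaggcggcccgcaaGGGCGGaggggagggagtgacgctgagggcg

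**Figure D5:**
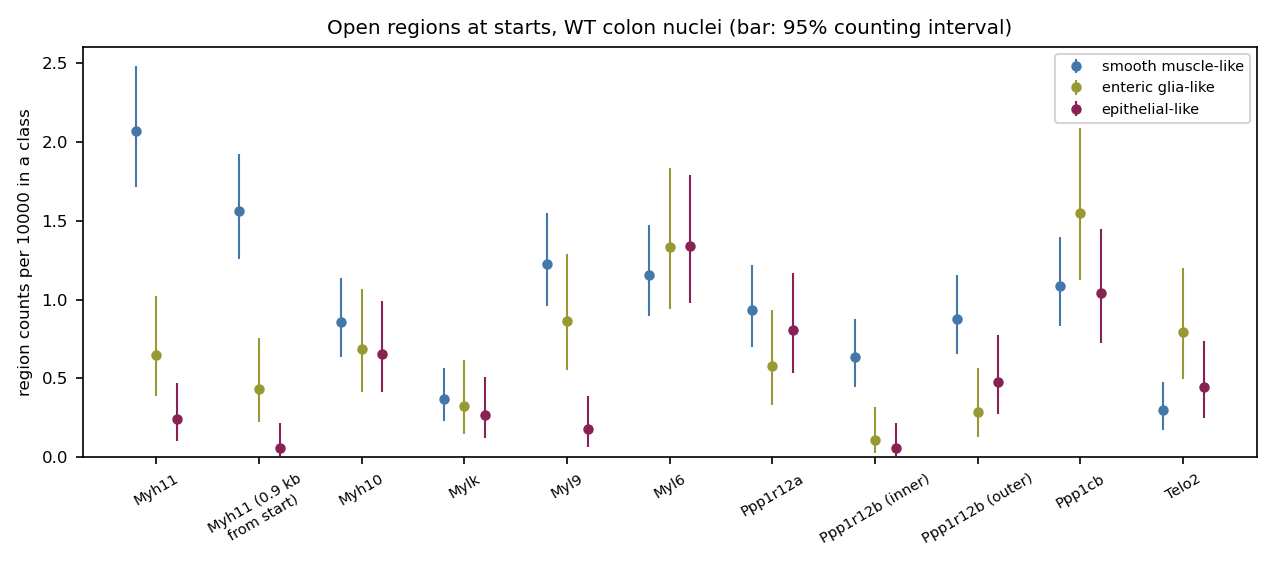
Counts per 10000 region counts (vertical axis, from 0) over the regions within 1000 bases of a start of each gene in 3 nuclear classes of the WT colon library, with 95% counting intervals. Both Myh11 regions and the inner Ppp1r12b region are higher in smooth muscle-like nuclei than in the other 2 classes, with 2.07 at the Myh11 start, while at Ppp1cb and Telo2 enteric glia-like nuclei have the highest value.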

How the data were processed

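Bulk libraries were aligned with STAR 2.0.4b and counted with featureCounts 1.4.5, per the submitters' processing notes, which also name GRCm38/mm10; strand use and annotation are not stated. The authors deposited raw counts per gene. For nuclei, the authors deposited count matrices of genes and regions; per the file headers the software was cellranger-arc-2.0.0. All gene values were even and 11.6% (WT) and 11.5% (KO) of region values odd, so gene values were divided by 2; that these are UMIs is an inference. Coordinates are those of GENCODE M21 (GRCm38), and start windows are from RefSeq (GRCm38.p6).

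Bulk counts were tested with edgeR 4.0.16 (filterByExpr, TMM, robust quasi-likelihood, 1 fit of 12 libraries, threshold 0.05), with DESeq2 1.42.0 and limma 3.58.1 voom as alternatives, beside other scalings, filters and left-out libraries. CPM used TMM sizes. SE is the absolute log2 fold change over the root of F. Tests were checked on simulated data.

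Nuclei needed at least 500 UMIs, 300 genes and at most 5% mitochondrial UMIs; simulated-doublet scores removed 56 WT and 20 KO. Clustering used 2000 genes, 30 components and resolution 1. A cluster was named where its best marker list had a mean log2 fold of at least 1, led the next by 0.5 and had 3 detected markers.

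Genes named were the 10 members, 3 nearest profiles of 4 members, and from each related list those past the threshold or, with none, the 2 with the smallest p. Ppp1ca, Ppp1cc, Calm2 and Myl12a fall outside this rule; their values were known when they were picked. The members, lists and tests were chosen with earlier results of these data known.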

Additional observations from a re-analysis of the deposited data

How the results depend on the processing

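With 3 libraries per group, the number of members called moved with the settings. In KO against WT colon (1 by edgeR) it was 5 with DESeq2, 0 when only the 6 colon libraries were fitted, 0 to 3 when 1 library was left out, and 3 without KO colon t4 and KO jejunum m1, a setting added after the data were seen. In jejunum (0) it was 3 with DESeq2. Between WT tissues (0) it was 2 with DESeq2, 1 when only the 6 WT libraries were fitted and 2 without those 2 libraries. Between KO tissues (1) it was 2 with a filter of 1 CPM, 5 with DESeq2, 2 with limma voom, 0 with only the 6 KO libraries, 0 to 3 with 1 library left out and 3 without those 2. Over all genes, DESeq2 called 960 in colon and 805 in jejunum where edgeR called 81 and 45. Between WT tissues DESeq2 called 1160 of all genes and edgeR 325. Between KO tissues DESeq2 called 1427, limma voom 295 and edgeR 270. For the other settings the number over all genes is not given here, so their counts of members are not a result about the members.

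Some directions turned, for values near 0 and for Ppp1r14a. Ppp1r14a between KO tissues (0.0065) was -0.0062 with RLE size factors, -0.0051 without a filter, -0.0023 with the 1 CPM filter, -0.0064 with DESeq2, -0.022 with the 6 KO libraries, and -0.24 to 0.32 with 1 library left out. Telo2 in jejunum was -0.0042 with total counts. With 1 library left out, Telo2 ran from -0.18 to 0.14 in colon, -0.016 to 0.071 in jejunum and -0.22 to 0.10 in the difference. Ppp1r14a ran from -1.32 to 0.12 in jejunum, -0.49 to 0.95 in the difference and -0.97 to 0.47 between WT tissues, and Mylk from -0.46 to 0.014 in the difference. Between WT tissues Ppp1r12b ran from -0.29 to 0.060 and Myh11 from -0.15 to 0.14. The cause was not tested.

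The tags occur in both tissues for 5 pairs, and the labels do not say whether same-tag libraries share an animal. Same-tag deviations correlated at -0.16 to 0.10, and WT t1 was the 1 tag of 5 that matched best with its own, so the tag was not used as a pairing in the reported tests. With the tag as a replicate block, 0 members were called between KO tissues (Ppp1cb at -1.07, edgeR adjusted p = 0.521), Ppp1r14a turned in the difference (-0.24) and between KO tissues (-0.35), and Telo2 in the difference (0.078). No paired analysis was possible for KO against WT within a tissue because the groups share fewer than 2 tags. With total counts the median of all genes between KO tissues was 0.14, against 0.03. Levels in nuclei moved past their counting interval in 8 of 60 values.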
